A study of Mus musculus with 17 samples.

Results

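The genes described here are 9 adhesion molecules that endothelium uses to capture and hold blood cells: the immunoglobulin family members Icam1, Icam2, Vcam1, Mcam and Alcam, the selectins Sele and Selp, and the sialomucins Cd34 and Podxl. They were chosen by name, with no measured value in the rule, but with earlier results of these data known. All 9 were found among the 49585 Ensembl gene identifiers of each count table. The data are 17 RNA-seq libraries of endothelial cells from mouse bone marrow. KO animals carried an Eng allele with loxP sites around exons 5 and 6 and a tamoxifen-activated Cre recombinase (CreERT2) under the Cdh5 promoter, which is active in endothelium generally and not in marrow vessels alone. Eng encodes Endoglin, a co-receptor of the TGF-beta and BMP pathway. WT and KO animals of every group received tamoxifen, at 8 weeks of age, and the labels do not say whether WT animals carried the Cre transgene. Cells from crushed long bones were sorted by a gate that kept CD31+ Sca1+ cells without CD45 or Ter119, while the series' design text gives this gate without Sca1. There were 4 WT libraries (2 female, f1 and f4, and 2 male, m2 and m3) and 4 KO libraries (f1, f4, m2 and m3) collected 2 weeks after tamoxifen. The 4-week groups held 5 WT libraries (f, f3, m1, m2 and m3) and 4 KO libraries (f2, m1, m2 and m3). The labels do not state that each library is a separate animal, so the p-values given below measure the spread between these libraries.

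As background, a leukocyte leaves the blood in steps. E-selectin (Sele) and P-selectin (Selp) catch sialylated and fucosylated glycans on the passing cell and make it roll. ICAM-1, ICAM-2 and VCAM-1 then bind leukocyte integrins and arrest it, and junctional molecules guide it through the vessel wall. Cytokines that act through NF-kappaB induce Sele, Icam1 and Vcam1, whereas Icam2 is made constitutively. In bone marrow the vessels express several of these molecules without inflammation, and VCAM-1 and the selectins take part in the homing of blood-forming cells. Cd34 and Podxl are heavily glycosylated, and Podxl, a component of the apical surface, has been described as anti-adhesive as well as a ligand for selectins in some vessels. Mcam (CD146) is an adhesion molecule of endothelium and pericytes, and Alcam (CD166) binds CD6 on lymphocytes.

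Total counts ran from 20477400 to 40882715 per library, so that the floor of 3 counts, below which a gene was taken as not detected, lay between 0.0734 and 0.147 CPM, the count per mega-count of the library. Eng was lower in each KO library than in each WT library of its time point, with KO means at 26.1% of WT at 2 weeks and 30.1% at 4 weeks, and the 4-week KO library m2 kept the most (1647 CPM, against 274 to 873 CPM in the other 3). The endothelial genes Pecam1 (688 to 3143 CPM), Cdh5 and the Sca1 gene Ly6a were present in all 17 libraries, and the CD45 gene Ptprc was at most at 15.6 CPM, in the 2-week KO library m2. The 2 time points stood apart as sets of libraries: 2-week libraries held counts for 10886 to 13583 genes and 22.2% to 29.5% mitochondrial counts, and 4-week libraries for 15996 to 21235 genes with 4.66% to 8.99%. The labels record no library batch, so time after tamoxifen and a batch cannot be told apart. Neutrophil markers summed to 3150 and 4104 CPM in the 2-week KO libraries m3 and m2 and to at most 238 CPM in the other 15. The 9 libraries of 4 weeks fell into 2 sets that deviated together in both genotypes, WT f, m1 and m2 with KO m1 and m2, and WT f3 and m3 with KO f2 and m3.

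In WT cells Icam2 and Cd34 were the most abundant members, and Alcam was the only member at or under the floor in all WT libraries. Levels between genes are compared here in TPM, counts per length of the gene's merged exons. At 4 weeks Icam2 stood at 724 ± 108 TPM (SD, n = 5) and Cd34 at 501 ± 72.9 TPM, and the ranges of these 2 genes overlapped (542 to 824 and 393 to 593 TPM). Mcam at 208 ± 57.7, Icam1 at 207 ± 41.7 and Podxl at 201 ± 48.6 TPM came next, and their order is not resolved by the spread. Sele at 40.6 ± 16.3, Selp at 39.4 ± 28.8 and Vcam1 at 31.7 ± 7.74 TPM formed the third level, again with overlapping ranges. Each of these 3 levels was clear of the next, since the lowest Cd34 library (393 TPM) exceeded the highest Mcam library (284 TPM), and the lowest Podxl library (132 TPM) the highest Selp library (84.6 TPM). At 2 weeks the order was Icam2 (233 ± 43.7 TPM, SD, n = 4), Cd34 (224 ± 43.2), Podxl (66.6 ± 17.5), Mcam (43.7 ± 20.3), Icam1 (19.0 ± 7.86), Vcam1 (4.36 ± 2.87), Selp (3.13 ± 3.91) and Sele (0.561 ± 1.12). In that order only Cd34 against Podxl and Icam1 against Vcam1 were neighbours whose libraries did not overlap. With the longest transcript as the length, Cd34 (456 and 953 TPM at 2 and 4 weeks) stood above Icam2 (296 and 858 TPM), so the rank of the first 2 genes depends on the length used.

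**Figure D1:**
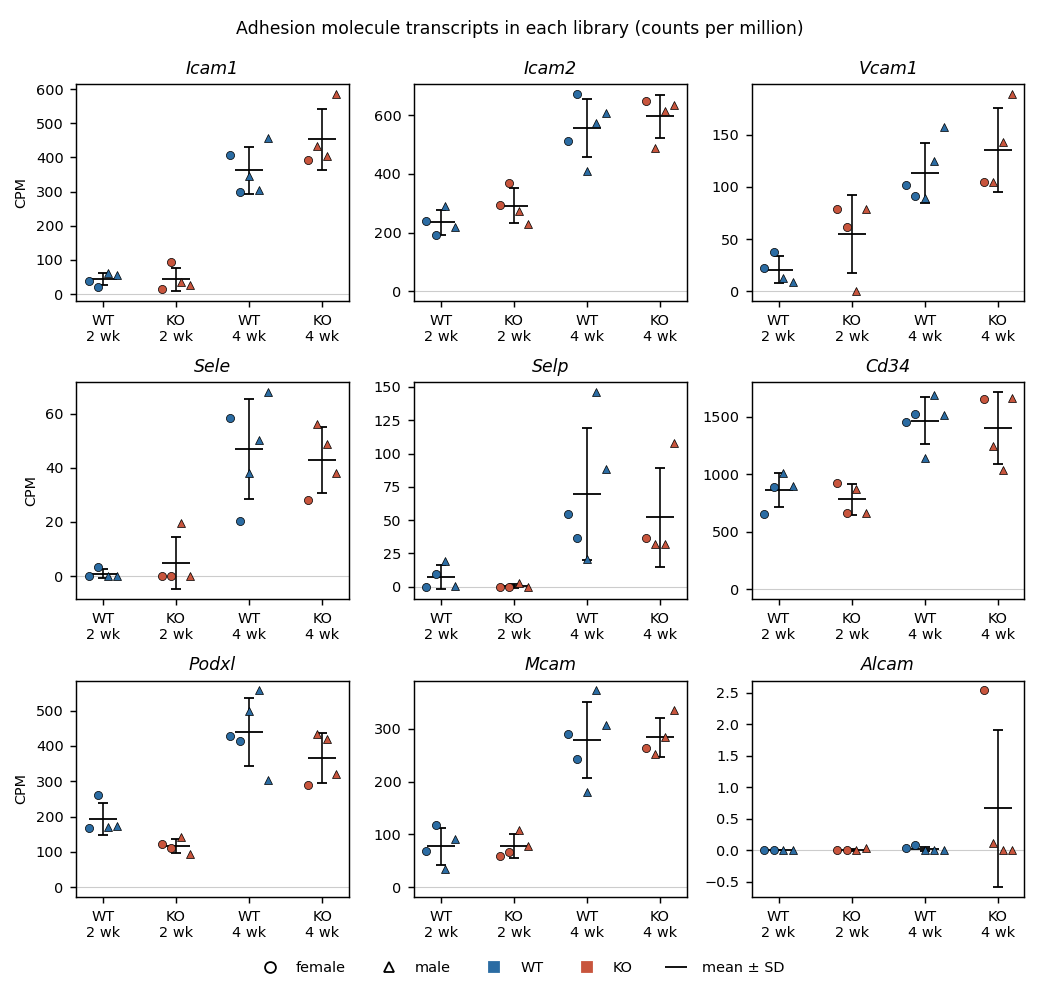
Each panel shows 1 adhesion molecule, with its level in CPM on the vertical axis and the 4 groups on the horizontal axis; circles are female and triangles male libraries, blue is WT and red KO, and bars give the mean ± SD. WT and KO points overlap in each panel and time point except Podxl at 2 weeks, where KO (94.5 to 142 CPM) lies below WT (168 to 261 CPM), and Sele and Selp lie at or near 0 in most 2-week libraries.

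The start regions of the members Icam1, Sele and Cd34 are shown. These 3 were picked by their values: the first 2 had far lower counts at 2 weeks, and Cd34 was among the most abundant members throughout. Selp and Mcam were also lower at 2 weeks, and their windows, not shown, held no TATA box. No result below rests on these windows. They are RefSeq windows on the plus strand of GRCm38.p6, 250 bases before to 50 after the annotated start, at chr9:21015690-21015989 for Icam1, chr1:164047984-164048283 for Sele and chr1:194938571-194938870 for Cd34. The table of windows held 6 of the 9 members, and Icam2, Vcam1 and Podxl were not among them. Capitals mark every match to 6 searched motifs on either strand: the TATA box TATAAA, the GC box GGGCGG, the AP-1 site TGANTCA, the ETS core GGAAGT, the BMP response element GGCGCC and the NF-kappaB consensus.
Icam1: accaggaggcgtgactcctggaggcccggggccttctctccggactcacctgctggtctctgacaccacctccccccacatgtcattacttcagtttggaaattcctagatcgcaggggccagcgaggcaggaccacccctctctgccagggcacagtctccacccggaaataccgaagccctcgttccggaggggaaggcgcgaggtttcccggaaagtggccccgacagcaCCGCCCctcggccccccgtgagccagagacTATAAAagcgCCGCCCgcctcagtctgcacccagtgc
Sele: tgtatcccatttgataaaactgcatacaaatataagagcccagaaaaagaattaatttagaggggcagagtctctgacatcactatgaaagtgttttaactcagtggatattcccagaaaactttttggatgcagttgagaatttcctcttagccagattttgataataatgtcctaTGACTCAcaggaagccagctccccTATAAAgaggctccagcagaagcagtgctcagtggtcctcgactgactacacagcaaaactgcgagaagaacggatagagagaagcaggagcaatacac
Cd34: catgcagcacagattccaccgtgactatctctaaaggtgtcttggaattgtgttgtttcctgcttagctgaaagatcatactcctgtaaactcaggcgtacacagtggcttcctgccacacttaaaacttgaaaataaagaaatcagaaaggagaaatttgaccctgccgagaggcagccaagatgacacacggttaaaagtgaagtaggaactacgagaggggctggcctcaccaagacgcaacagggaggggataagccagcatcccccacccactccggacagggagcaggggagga

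The TATA box was found in Icam1 and Sele among the 6 members with a window, and in 13.6% of 32851 windows of the same length. The AP-1 site was found in Sele and in Selp (share of all windows, 7.81%), and Selp also held an ETS core (23.8%). The Icam1 window held 2 GC boxes, the Mcam window 5 and the Alcam window 2 (35.7%), and the Mcam window also held the BMP response element (11.9%). The Cd34 window held none of the 6, and none of the 6 windows held the NF-kappaB consensus (4.51%). Counted from the start that the window implies, the Sele TATA box lay at -49 to -44 and the Icam1 one at 14 to 19, after that start. The GENCODE M21 start of Icam1 lies 45 bases further downstream than the RefSeq one, and that of Sele is the same. A match is a description of these letters, and the absence of one says nothing of the factor.

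The first question was whether loss of Eng changed these molecules. No member passed the adjusted threshold of 0.05 in KO against WT at either time point, among 7 members tested of 10477 genes at 2 weeks and 8 of 15209 genes at 4 weeks (edgeR's quasi-likelihood test, Benjamini-Hochberg adjustment over all genes of the fit). The share of all genes called was 0% in both, and with an unadjusted p under 0.05 it was 2.63% at 2 weeks, with 1 member among them, and 2.77% at 4 weeks, with none. Eng, the deleted gene, did not pass in these fits either. Its log2 fold change was -1.96 at 2 weeks (rank 1 of 10477 genes, adjusted p = 0.612 by edgeR) and -1.72 at 4 weeks. The lack of calls on its own is therefore no evidence that a member was unchanged. At 4 weeks no member had groups apart (1.19% of all genes did). DESeq2 and limma's voom also called no member at either time point. Sele at 2 weeks and Alcam at both time points had too few counts for the test. The median log2 fold change of the tested members was -0.01 at 2 weeks and 0.00 at 4 weeks, beside -0.06 and 0.01 over all genes. In bulk RNA, fewer cells of a type and less RNA per cell cannot be told apart, and this holds for each member below.

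Podxl was the member that stood out at 2 weeks. WT libraries were at 168 (f1), 261 (f4), 171 (m2) and 174 CPM (m3), and KO libraries at 121 (f1), 111 (f4), 142 (m2) and 94.5 CPM (m3). The 2 groups did not overlap, all 4 KO libraries being lower, with a KO mean at 60.6% of the WT mean. Among all genes tested at 2 weeks, 3.36% had groups that did not overlap, and 1.78% had all KO libraries lower. The log2 fold change was -0.71 (SE 0.217, 95% interval -1.23 to -0.20), with an unadjusted p = 0.0133, rank 81 of 10477 genes, and adjusted p = 1 by edgeR. A two-sided exact permutation test on log2 CPM gave p = 0.0286, the smallest value that 4 against 4 allows. Leaving out each 2-week library in turn gave log2 fold changes from -0.86 to -0.55, and leaving out KO m2 and m3, the libraries highest in neutrophil markers, gave -0.91. The KO libraries that remain then, f1 and f4, had neutrophil sums of 107 and 238 CPM, against 22.6 to 110 CPM in WT.

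Marker lists of other cell types were summed in the same 2-week libraries, and edgeR called none of the tested genes in KO at 2 weeks. The number tested was small for several lists, with 6 of 10 stromal, 7 of 8 pericyte, 6 of 10 erythroid, 8 of 9 neutrophil, 2 of 9 platelet, 1 of 5 leukocyte, 1 of 10 macrophage and 0 of 9 counter-receptor genes. Stromal markers, of which Cxcl12 and Kitl were the most abundant, summed to 1470 to 1955 CPM in WT and 1135 to 1475 CPM in KO. Bulk RNA does not tell which cells made these transcripts, the endothelial cells included, so this sum is not a measure of stromal cells. Of the 10 stromal genes, 5 to 8 were above the floor in each library, and Sp7 was at 0 in all 8 libraries, Runx2 in all 4 WT libraries and Pdgfra in all 4 KO libraries. Of the 6 stromal genes tested, 4 had a log2 fold change below 0. Kitl was at -0.63 (SE 0.155, adjusted p = 1 by edgeR), and its unadjusted p of 0.00494 in that edgeR fit was smaller than the one of Podxl. Cxcl12 was at -0.38 (SE 0.18), Bglap at -0.71 (SE 1.52), Col1a1 at -0.15 (SE 1.16), Col1a2 at 0.78 (SE 1.62) and Lepr at 1.84 (SE 2.06), each with adjusted p = 1 by edgeR. Pericyte and smooth muscle markers summed to 931 to 1752 CPM in WT and 938 to 1182 CPM in KO, and erythroid markers to 61.4 to 233 CPM in WT and 278 to 1251 CPM in KO. Neutrophil markers summed to 22.6 to 110 CPM in WT and 107 to 4104 CPM in KO, and all 8 tested had a log2 fold change above 0 (median 4.73). Leukocyte markers summed to 0 to 15.2 CPM in WT and 28.0 to 252 CPM in KO, macrophage markers to 7.30 to 30.1 and 0 to 54.3 CPM, and genes of leukocyte counter-receptors to at most 0.239 CPM in WT and 57.4 CPM in KO, in m2. Endothelial markers summed to 3208 to 4493 CPM in WT and 2803 to 3549 CPM in KO. Of the vessel types, arterial markers were at 600 to 736 CPM in WT and 460 to 616 CPM in KO, sinusoidal markers at 490 to 817 and 343 to 720 CPM, and venous markers at 119 to 222 and 191 to 235 CPM. WT and KO did not overlap in the erythroid, leukocyte and counter-receptor sums, which were the higher in KO. For the counter-receptors the nearest libraries were almost equal, WT m3 at 0.239 CPM and KO f4 at 0.295 CPM. The part of these lists in the Podxl values was not tested. Relative to Pecam1 in the same library the Podxl difference was -0.61 on the log2 scale (two-sided exact permutation p = 0.0857, n = 4 and 4), and WT m3 lay within the KO range.

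At 4 weeks the Podxl groups overlapped. WT libraries were at 428 (f), 415 (f3), 498 (m1), 557 (m2) and 302 CPM (m3), and KO libraries at 290 (f2), 434 (m1), 418 (m2) and 321 CPM (m3). The lowest value was a KO library and the 2 highest were WT libraries. The log2 fold change was -0.29 (SE 0.186, 95% interval -0.71 to 0.13, adjusted p = 1 by edgeR). Within the first set of 4-week libraries the Podxl mean was 494 CPM in WT (n = 3) and 426 CPM in KO (n = 2), and within the second it was 359 and 305 CPM (n = 2 each). KO was thus the lower mean in both sets, and a fit with a term for the sets gave a log2 fold change of -0.22.

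Over both time points, in 1 fit of all 17 libraries, Podxl had a log2 fold change of -0.48 (SE 0.14, 95% interval -0.78 to -0.19, unadjusted p = 0.00371). It did not pass the adjustment (edgeR, adjusted p = 0.251). In that fit 13 of 13515 genes were called (0.0962%), Eng among them at -1.83 (adjusted p = 0.0378), and none of the 8 members tested. DESeq2 called Podxl (-0.51, adjusted p = 0.0111), but it called 1004 genes in all in this comparison, and the adjusted p of Podxl ran from 0.0111 to 0.668 over the alternatives. For Podxl, the 4-week KO effect minus the 2-week one was 0.43 (SE 0.276, adjusted p = 0.885 by edgeR), so the data do not show that the effect differed with time. No member was among the 14 genes (0.104%) called for that difference.

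**Figure D2:**
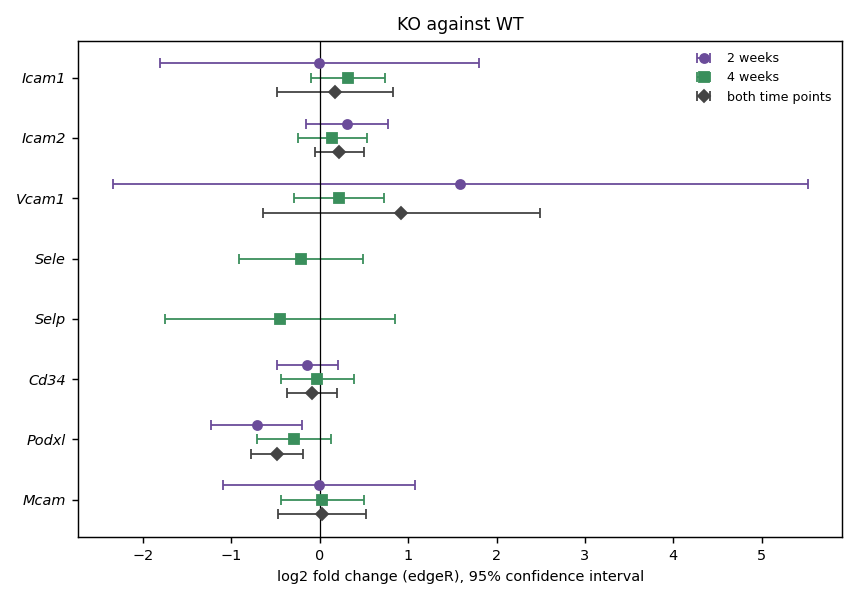
Points are edgeR log2 fold changes of KO against WT and bars their 95% confidence intervals, for 2 weeks (circles), 4 weeks (squares) and both time points (diamonds). Sele at 2 weeks was not tested, and Selp at 2 weeks and both selectins over both time points are left out because libraries at 0 give them intervals of several log2 units; the Podxl intervals at 2 weeks (-1.23 to -0.20) and over both time points (-0.78 to -0.19) are the ones that lie below 0.

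Icam1, the inducible integrin ligand, did not separate by genotype. At 2 weeks WT libraries were at 39.4 (f1), 20.6 (f4), 61.1 (m2) and 55.7 CPM (m3), and KO libraries at 16.3 (f1), 93.1 (f4), 34.4 (m2) and 28.3 CPM (m3). Both the lowest and the highest library were KO. At 4 weeks WT libraries were at 408 (f), 298 (f3), 345 (m1), 304 (m2) and 458 CPM (m3), and KO libraries at 392 (f2), 434 (m1), 403 (m2) and 585 CPM (m3). KO m3 was the highest of the 9, and the other 3 KO libraries lay inside the WT range. The log2 fold changes were -0.01 (SE 0.763) at 2 weeks and 0.32 (SE 0.184, 95% interval -0.10 to 0.74) at 4 weeks. An antisense gene, Gm47079, shares 511 of the 4360 exonic bases of Icam1 and had 25.1% as many counts. Since no strand setting is given, it is not known how reads within the shared bases were counted.

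Icam2, which binds the same leukocyte integrin, had a 95% interval of -0.16 to 0.77 (log2 fold change 0.31) at 2 weeks and of -0.25 to 0.53 (0.14) at 4 weeks. Its KO libraries ran from 229 to 370 CPM at 2 weeks and from 487 to 649 CPM at 4 weeks, against 191 to 292 and 411 to 672 CPM in WT. A change of 1 log2 unit in either direction lies outside both Icam2 intervals.

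Vcam1, the ligand of the integrin VLA-4, was scattered at 2 weeks. At 2 weeks WT libraries were at 22.2 (f1), 37.8 (f4), 12.6 (m2) and 8.85 CPM (m3), and KO libraries at 78.6 (f1), 61.4 (f4), 0 (m2) and 79.2 CPM (m3). Of the KO libraries 3 exceeded every WT library and the remaining one, m2, had no count at all. The log2 fold change was 1.59 (SE 1.66, 95% interval -2.34 to 5.52, adjusted p = 1 by edgeR), and limma with voom weights gave -0.10. Without KO m2 it was 1.95 and without KO m3 -0.38. At 4 weeks Vcam1 was at 89.2 to 158 CPM in WT and 105 to 189 CPM in KO, with a log2 fold change of 0.22 (SE 0.224), and the groups overlapped.

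The selectins were detected in some 2-week libraries and not in others. Sele had counts in WT f4 (3.35 CPM, 137 counts) and KO m2 (19.5 CPM, 578 counts) and a count of 0 in the other 6 libraries, which allows up to 3 counts in each. Selp was at 0 (f1), 9.22 (f4), 19.0 (m2) and 0.371 CPM (m3) in WT and at 0 (f1), 0.177 (f4), 2.59 (m2) and 0 CPM (m3) in KO. The 2 highest Selp libraries were WT, but 2 WT libraries lay within the KO range. The Selp log2 fold change of -4.20 (SE 2.99, adjusted p = 1 by edgeR) rests on libraries at or near 0 and ran from -6.93 to -1.38 when single libraries were left out. Without WT f4 it was -1.38.

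At 4 weeks both selectins were found in all 9 libraries, at overlapping levels. Sele was at 58.6 (f), 20.4 (f3), 38.0 (m1), 50.5 (m2) and 68.0 CPM (m3) in WT and at 28.1 (f2), 56.4 (m1), 48.9 (m2) and 38.3 CPM (m3) in KO. All 4 KO libraries lay within the WT range, and the log2 fold change was -0.21 (SE 0.31, 95% interval -0.92 to 0.49). Selp was at 54.5 (f), 36.6 (f3), 21.2 (m1), 146 (m2) and 88.6 CPM (m3) in WT and at 36.6 (f2), 31.8 (m1), 32.0 (m2) and 108 CPM (m3) in KO. KO m3 stood at about the height of the upper WT libraries and the other 3 KO libraries in the lower part of the WT range, with a log2 fold change of -0.45 (SE 0.572, 95% interval -1.75 to 0.85). Leaving out single libraries gave Selp values from -0.99 (without KO m3) to -0.05 (without WT m2). Platelets and megakaryocytes also make P-selectin: their markers summed to 34.0 CPM in WT m2 and 32.2 CPM in KO m3, the libraries highest in Selp, with ranges over the 4-week libraries of 20.9 to 44.2 CPM in WT and 22.6 to 57.9 CPM in KO. Their part in the Selp values was not tested.

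Cd34, the sialomucin of capillary endothelium and of blood-forming progenitors, was even across genotypes, at 658 to 1012 CPM in WT and 666 to 922 CPM in KO at 2 weeks. At 4 weeks the ranges were 1142 to 1695 and 1042 to 1666 CPM. Its 95% intervals, -0.49 to 0.21 at 2 weeks and -0.44 to 0.39 at 4 weeks, exclude a change of 1 log2 unit in either direction. The summed level of 6 genes of blood-forming progenitors (Kit, Flt3, Myb, Cd48, Gfi1 and Spi1) was 0 to 6.23 CPM in WT and 0.0374 to 21.4 CPM in KO at 2 weeks, and 5.90 to 38.5 and 10.2 to 25.8 CPM at 4 weeks. Gfi1 was at 0 in all 17 libraries, and the part of these genes in the Cd34 values was not tested. Mcam had log2 fold changes of -0.01 (95% interval -1.10 to 1.08) at 2 weeks and 0.03 (-0.44 to 0.50) at 4 weeks. KO and WT means of Mcam were 77.7 and 77.6 CPM at 2 weeks and 284 and 279 CPM at 4 weeks.

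Alcam was above the floor of 3 counts in 1 library of 17, the 4-week KO library f2 (52 counts, 2.54 CPM). The other 4-week libraries held 0 to 3 counts, and the 2-week libraries 1 count in KO m3 and none in the remaining 7. No fold change is given, because WT stayed at or under the floor.

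Other genes of the adhesion cascade were counted from 4 lists. Of 19 adhesion and transmigration genes, none was called in KO at either time point, with a median log2 fold change of -0.41 at 2 weeks (3 above 0 and 12 below, of 15 tested) and -0.01 at 4 weeks (8 and 9 of 17). The genes of smallest unadjusted p in that list were the junctional Jam2 (log2 fold change -0.61) and Esam (-0.42) at 2 weeks, and Jam2 (-0.42) and L1cam (-0.90) at 4 weeks. Each had an adjusted p = 1 by edgeR. Of 11 linkers that tie Podxl and other receptor tails to the cell cortex, none was called, with medians of -0.39 at 2 weeks (2 above 0 and 7 below, of 9) and -0.20 at 4 weeks (3 and 8 of 11). Radixin (Rdx, -1.23) and Ctnna1 (-0.28) led at 2 weeks and Lcp1 (-0.60) and ezrin (Ezr, 0.88) at 4 weeks, in unadjusted p. Of 15 glycan enzymes that build selectin ligands none was called. The median was 0.31 at 2 weeks (7 above 0 and 1 below, of 8 tested) and 0.00 at 4 weeks (6 and 6 of 12), with St3gal4 at -0.44 and Tpst1 at 0.45 at 2 weeks, and Galnt1 at -0.42 and Tpst1 at -0.29 at 4 weeks. Of 18 cytokine receptor and NF-kappaB genes none was called either. The median was 0.00 at 2 weeks (7 above 0 and 6 below, of 13 tested) and 0.07 at 4 weeks (10 and 7 of 17), with Irf1 at 0.48 and Ltbr at -0.69 at 2 weeks, and Nfkb2 at 0.45 and Tnfrsf1b at -0.25 at 4 weeks. The median of all genes was -0.06 at 2 weeks and 0.01 at 4 weeks.

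The larger contrast in these molecules was between the time points, which differ also as sets of libraries. A gene that passed the filter on low counts only through its 4-week libraries had to be higher there, so the counts of this contrast are over the 10378 genes that also passed the filter at 2 weeks, 7 members among them. In WT, 4 of these 7 members were called higher at 4 than at 2 weeks, where 4.86% of the 10378 genes were called and 1.87% called higher, and in KO the same 4 members were called, where the shares were 4.45% and 2.03%. The median log2 fold change of the 7 members was 1.51 in WT and 1.31 in KO, beside 0.06 and 0.11 over the 10378 genes. The 4 members were Icam1, Icam2, Podxl and Mcam. Of 8 endothelial markers 3 were also called higher in each genotype, Pecam1 (1.18 in both), Cdh5 (1.11 in WT and 1.27 in KO) and Emcn (1.36 and 1.58). The other 5 did not pass the test, with Kdr at 0.98 and 0.78, Tek at 1.06 and 0.85, Tie1 at 0.37 and 0.59, Egfl7 at 0.08 and 0.17 and Erg at 0.14 and -0.07, nor did the Sca1 gene Ly6a (0.26 and 0.28). Ratios to Pecam1 below are thus relative to a marker that was itself called higher, and other endothelial markers would give other ratios.

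Icam1 had the largest called difference of the 4. Its WT mean was 44.2 ± 18.2 CPM at 2 weeks (SD, n = 4) and 363 ± 69.2 CPM at 4 weeks (SD, n = 5), and its KO mean 43.0 ± 34.3 and 454 ± 89.4 CPM (SD, n = 4 each). The highest 2-week library, KO f4 at 93.1 CPM, was far below the lowest 4-week library, WT f3 at 298 CPM. The log2 fold change was 2.73 (SE 0.465, adjusted p = 0.00259) in WT and 3.03 (SE 0.496, adjusted p = 0.00215) in KO, by edgeR. Relative to Pecam1 in the same library Icam1 was still higher at 4 weeks, by 1.58 in WT (two-sided exact permutation p = 0.00794, n = 5 and 4) and 2.13 in KO (exact permutation p = 0.0286, n = 4 and 4), each the smallest p its group sizes allow. These were among 36 exact tests of member ratios, with 36 more on log2 CPM, and none carries an adjustment.

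Icam2 was at 239, 191, 292 and 219 CPM in WT at 2 weeks (f1, f4, m2 and m3) and at 513, 672, 411, 574 and 609 CPM at 4 weeks (f, f3, m1, m2 and m3), with no overlap. Its log2 fold change was 0.95 (SE 0.179, adjusted p = 0.00504) in WT and 0.75 (SE 0.189, adjusted p = 0.0266) in KO, by edgeR. The call in KO was lost with limma's voom weights (0.78, adjusted p = 0.111), and also without 2-week KO f1 (adjusted p = 0.0612), 2-week KO m3 (0.0716), 4-week KO f2 (0.097), 4-week KO m2 (0.0527) or 4-week KO m3 (0.0642). Relative to Pecam1, the Icam2 difference was -0.31 in WT and -0.51 in KO, the opposite sign (exact permutation p = 0.325 and 0.171).

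Mcam stood at 68.4, 117, 34.5 and 90.9 CPM in WT at 2 weeks and at 291, 243, 180, 373 and 307 CPM at 4 weeks, in the same order of libraries, again with no overlap. Its log2 fold change was 1.51 (SE 0.328, adjusted p = 0.012) in WT and 1.53 (SE 0.339, adjusted p = 0.0133) in KO, by edgeR. For Podxl the values were 0.88 (SE 0.195, adjusted p = 0.0137) and 1.31 (SE 0.207, adjusted p = 0.00189). The Podxl call in WT was lost without 2-week WT m2 (adjusted p = 0.0522) and the calls in both genotypes with limma's voom weights (0.136 in WT and 0.0689 in KO). Relative to Pecam1 neither gene passed, with Mcam at 0.39 and 0.35 and Podxl at -0.36 and 0.09 in WT and KO (exact permutation p from 0.143 to 0.657).

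Cd34 had the smallest time difference of the tested members, at a log2 fold change of 0.46 in WT (adjusted p = 0.181) and 0.54 in KO (adjusted p = 0.117) by edgeR. DESeq2 (adjusted p = 0.0472 and 0.0228) and a filter of at least 10 counts in every library (0.0423 and 0.0359) called it in both genotypes. Relative to Pecam1, Cd34 was lower at 4 weeks in WT, at -0.78 with no overlap (exact permutation p = 0.00794, n = 5 and 4), and at -0.72 in KO (exact permutation p = 0.0571, n = 4 and 4). The direction for Cd34 therefore flips with the reference chosen. The antisense gene Gm16897, which shares 148 exonic bases with Cd34, had 15.3% as many counts.

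**Figure D3:**
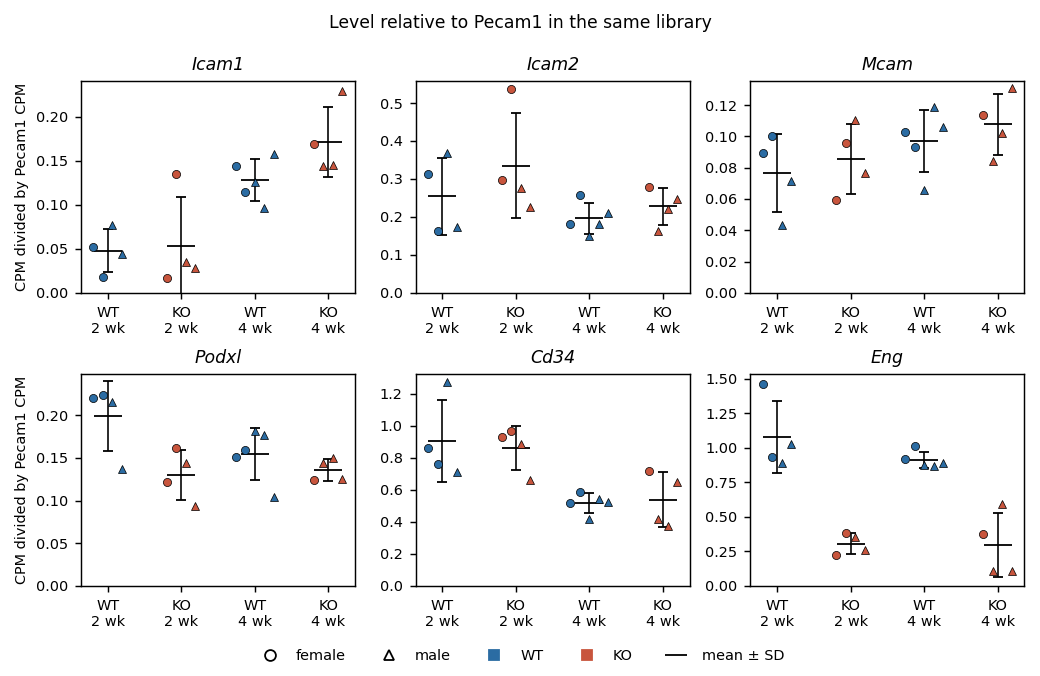
The vertical axis gives a gene's CPM divided by the CPM of Pecam1 in the same library, for 5 members and for Eng, and the horizontal axis the 4 groups; circles are female and triangles male libraries, blue is WT and red KO, and bars are mean ± SD. Icam1 is higher at 4 than at 2 weeks in both genotypes without overlap, Cd34 is lower at 4 weeks in WT without overlap, and the Eng ratio separates KO from WT at both times.

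Sele, Selp and Vcam1 were at or near 0 in some 2-week libraries and present in all 9 of 4 weeks. Sele was above the floor in 2 of 8 libraries at 2 weeks and in 9 of 9 at 4 weeks, Selp in 5 of 8 and 9 of 9, and Vcam1 in 7 of 8 and 9 of 9. Of 11854 genes above the floor in all 4-week libraries, 53.5% were at or under it in at least 1 library of 2 weeks and 8.07% in at least 6, as Sele was. Sele did not pass the filter at 2 weeks, so its difference between the time points is a description, with no test. The Selp log2 fold change was 2.91 in WT (SE 1.67, adjusted p = 0.443) and 6.11 in KO (SE 1.99, adjusted p = 0.0804) by edgeR. For Vcam1 it was 2.33 in WT (SE 1.1, adjusted p = 0.292) and 1.15 in KO (SE 1.1, adjusted p = 0.765). Without single libraries the Vcam1 value in KO ran from 0.63 (without 2-week KO m2) to 2.01 (without 2-week KO m3). DESeq2 called Selp in KO (6.20, adjusted p = 0.000571). By edgeR, Selp passed in KO without 2-week KO m2 (adjusted p = 0.0353) or 2-week WT f1 (0.0375), and Vcam1 in WT without 2-week KO m2 (0.00386).

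Within each genotype all 4-week libraries of Selp and Vcam1 exceeded all 2-week libraries, as those of the other 5 members that passed the filter at 2 weeks did. Among the 10378 genes 13.8% were apart in this direction in WT and 15.6% in KO. Two-sided exact permutation tests on log2 CPM gave p = 0.00794 in WT and 0.0286 in KO for both genes, the smallest values these group sizes allow, whereas the size of the log2 differences depends on the prior count where libraries are at 0. Relative to Pecam1, Selp was apart in KO (6.06 on the log2 scale, exact permutation p = 0.0286) and overlapped in WT (3.68, exact permutation p = 0.0714). The Vcam1 ratios overlapped in both genotypes (1.11 in WT and 1.84 in KO, exact permutation p = 0.0159 and 1).

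Genes that respond to cell isolation were higher at 4 weeks. Their list of 10 holds 8 early response genes, among them the AP-1 genes Fos and Jun, and the heat shock genes Hspa1a and Hspa1b, and it summed to 946 to 2222 CPM at 2 weeks and 9229 to 14865 CPM at 4 weeks, with 7 of the 9 that passed the filter at 2 weeks called higher in each genotype by edgeR and none of the list at 0 in every library of a group. Sinusoidal markers summed to 1562 to 2979 CPM at 4 weeks over both genotypes, arterial markers to 1183 to 1380, venous markers to 316 to 524, macrophage markers to 27.6 to 74.7 and leukocyte markers to at most 11.6 CPM. Erythroid markers summed to 172 to 1303 CPM in WT and 621 to 2916 CPM in KO at 4 weeks, and none of the 6 that passed the filter at 2 weeks was called. Neutrophil markers were at 19.9 to 100 CPM in WT and 37.3 to 75.4 CPM in KO, with 1 of 7 called lower in KO. Beside the shares of 1.87% in WT and 2.03% in KO over the 10378 genes, 3 of 13 cytokine receptor and NF-kappaB genes were called higher in WT (Irf1 at 1.77, Tnfrsf1a at 0.83 and Ifngr1 at 1.38) and 2 in KO (Irf1 at 1.42 and Nfkbia at 0.78). Of the adhesion and transmigration genes 5 of 15 were called higher in each genotype, Cdh5, Pecam1, Emcn and Esam in both, Nectin2 in WT and Cd47 in KO. None of the 8 glycan enzymes was called in either genotype, with medians of 0.31 in WT and -0.17 in KO, and the medians of the adhesion and cytokine lists were 0.75 and 0.50 in WT and 0.93 and 0.52 in KO. The part of these lists, of library complexity and of mitochondrial share in the time differences of Icam1 and the other members was not tested.

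**Figure D4:**
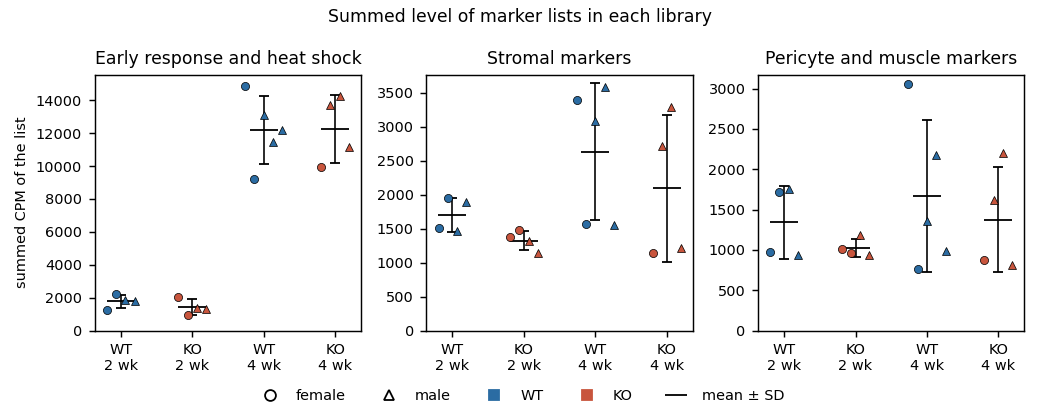
The vertical axis gives the summed CPM of a list of marker genes in each library, and the horizontal axis the 4 groups; circles are female and triangles male libraries, blue is WT and red KO, and bars are mean ± SD. Early response and heat shock genes lie between 946 and 2222 CPM at 2 weeks and between 9229 and 14865 CPM at 4 weeks, and stromal markers fall into 2 clusters at 4 weeks (1135 to 1561 and 2719 to 3590 CPM), each with libraries of both genotypes.

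The 2 sets of 4-week libraries also differed in some members. These sets come from the first principal component of 5094 genes, members included, so the values are a description. Podxl ran from 418 to 557 CPM in the first set and from 290 to 415 CPM in the second, with no overlap, as for 11.1% of the 15209 genes tested at 4 weeks. Icam2 ran from 411 to 614 CPM in the first set and from 609 to 672 CPM in the second, and only KO m2 of the first set (614 CPM) lay above a library of the second. Cd34 of KO libraries was at 1042 and 1249 CPM in the first set and 1660 and 1666 CPM in the second, whereas in WT it ran from 1142 to 1695 and from 1521 to 1527 CPM. Icam1, Vcam1 and Mcam overlapped between the sets. Stromal markers, whose sum is not a measure of stromal cells, were at 2719 to 3590 CPM in the first set and 1135 to 1561 CPM in the second. With a term for the sets, no member was called in KO against WT at 4 weeks, and the log2 fold changes ran from -0.71 (Selp) to 0.27 (Icam1).

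For each member the 2 genes with the most similar pattern were found by Pearson's r over the 17 libraries, after centring within each time point, among 5094 abundant genes. These values share libraries and depth, carry no test, and are a description. Podxl was most like Add1 (r = 0.899) and Kitl (0.829), and both held within each time point (at 2 and 4 weeks, 0.886 and 0.942 for Add1, 0.915 and 0.864 for Kitl). Icam2 was most like Meox1 (0.849, with 0.815 at 2 and 0.909 at 4 weeks) and Txndc17 (0.833). Cd34 was most like its antisense partner Gm16897 (0.98), with which it shares exonic bases, and then Chmp1a (0.885). Mcam was most like Map1b (0.842) and Rrp7a (0.839), and only Rrp7a kept a similar value at both times (0.83 and 0.898, against 0.941 and 0.296 for Map1b). The nearest genes to Icam1 (Zmym5 and Mms19, 0.822 each), Vcam1 (Ngrn, 0.962), Sele (Meox2, 0.76) and the second of Selp (Ddx18, 0.83) rested on the 2-week libraries, with r between -0.146 and 0.14 at 4 weeks. Vcam1 with Trappc12 (0.951), Sele with Tox4 (0.733) and Selp with Prpsap1 (0.86) were positive at both times. Alcam, at or under the floor in 16 of 17 libraries, was most like Grtp1 (0.636, with -0.17 at 2 weeks) and mt-Rnr1 (0.621).

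The members lie on 6 chromosomes of GRCm38, as protein-coding genes in the GENCODE M21 annotation, and both selectins are close together on chromosome 1. Sele (ENSMUSG00000026582) spans 164048234 to 164057677 and Selp (ENSMUSG00000026580) 164115264 to 164150026, both on the plus strand. Podxl (ENSMUSG00000025608) spans 31519488 to 31563981 on the minus strand of chromosome 6, has 9 merged exon blocks and overlaps no other gene, and the same lack of overlap holds for Icam2, Sele and Alcam. Icam1 (ENSMUSG00000037405) spans 21015985 to 21028817 on the plus strand of chromosome 9. Besides Icam1 and Cd34, exonic overlap with a gene on the other strand was found for Vcam1 (61 bases), Selp (438 and 186 bases, 2 genes) and Mcam (17 bases), with 3.06% to 17.8% as many counts as the member.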

How the data were processed

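The 17 tables hold raw counts per Ensembl gene, as deposited by the authors. Per the submitters' processing notes, cutadapt, STAR and HTSeq 0.6.1p1 were used with GRCm38 (mm10); the annotation release and strand setting are not given in the sources used here. Per the labels' protocols, libraries were made by SmartSeq2 from sorted cells, without molecular identifiers, so floors cover counting error only. Symbols came from GENCODE M21, which matched 49326 of 49585 identifiers.

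Counts were tested with edgeR 4.0.16 in R 4.3.3 (filterByExpr, TMM, robust quasi-likelihood F test), each time point alone with a sex term, and all 17 libraries together for the effect over both time points, its difference and the time contrasts. The Benjamini-Hochberg adjustment ran over every gene of a fit, and the threshold was 0.05. Counts of calls between time points are over genes that also passed the filter at 2 weeks. SEs were derived from F. CPM uses the library total, and exact permutation tests used log2 CPM with a prior count of 2. The code was tested on simulated counts.

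The 9 members and 18 gene lists (176 of 177 symbols matched) were chosen with earlier results of these data known. Results of some listed genes are not reported here. Besides the members, the text names Eng, the reference genes Pecam1, Cdh5, Ly6a and Ptprc, the 2 genes of smallest p per pathway list and KO comparison, the 2 most abundant genes of a marker list, and the 2 genes most like each member. Genes of the lists in the time contrasts, and marker genes cited at 0 or with a fold change, were named after their values were seen. Alternatives were DESeq2 1.42.0, limma 3.58.1 voom with quality weights, other scalings, no filter or at least 10 counts, no sex term, a replicate block, and leaving out libraries. Ratios to Pecam1, fits of the libraries of the block without it, and a term for the 2 sets of 4-week libraries were chosen after seeing the data.

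Whether replicate numbers pair libraries was checked by the correlation of same-numbered deviations from the group mean. For the 3 male pairs of 4 weeks r was 0.374, 0.123 and 0.516. They thus met the rule adopted for the replicate block (each above 0.1), from the data and not from the labels. Libraries of other numbers correlated as highly (KO m1 with WT f, 0.516), and WT m2 went more with KO m1 (0.178) than with KO m2. Each r between WT and KO libraries of the same 4-week set was above 0, and each r between different sets was below 0. These values therefore do not show that the numbers pair libraries.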

Additional observations from a re-analysis of the deposited data

Results flagged for a closer look

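In 7 of 35 groups of 4 or 5 libraries, 1 library stood apart from the rest of its group by Dixon's criterion. In 3 of the 7 every other library was at 0, where the criterion is always met. For the other 4, chance meets it in about 1 group in 20. Sele in 2-week WT was at 3.35 CPM in f4 and 0 in the other 3 libraries, and in 2-week KO at 19.5 CPM in m2 and 0 in the other 3. Selp in 2-week KO was at 2.59 CPM in m2, with 0.177 CPM as the next value. Selp in 4-week KO was at 108 CPM in m3, with 36.6 CPM as the next. Podxl in 2-week WT was at 261 CPM in f4, with 174 CPM as the next, and without f4 its log2 fold change in KO was -0.55 instead of -0.71. Alcam was at 0.0275 CPM (1 count) in 2-week KO m3 and at 2.54 CPM in 4-week KO f2.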

How the results depend on the processing

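No member was called in KO against WT at 2 weeks or at 4 weeks, or for the difference between these effects, under any alternative run. Over both time points DESeq2 called 1 member, Podxl. Of all values recomputed under the alternatives, 1046 kept their direction and side of the threshold, 69 changed sign, 16 gained a call, 12 lost one and 8 moved in size. The causes were not tested. In KO at 2 weeks, Icam1 (-0.01) became 0.06 with upper quartile scaling and 0.01 with no filter or in the joint fit. Mcam (-0.01) became 0.11 with voom, 0.05 with upper quartile scaling, 0.01 without the sex term and in the joint fit, and 0.20 relative to Pecam1. Vcam1 became -0.10 with voom and -0.38 relative to Pecam1. At 4 weeks Cd34 (-0.03) became 0.02 with voom, 0.01 with upper quartile scaling and 0.01 relative to Pecam1, and Sele 0.03 relative to Pecam1. Over both time points Vcam1 became -1.26 with voom, and Mcam -0.00 with DESeq2 and with its size factors. For the difference of effects Vcam1 became 2.82 and Mcam -0.04 with voom, and Mcam -0.01 with at least 10 counts. Between time points, the ratio to Pecam1 gave -0.31 and -0.51 for Icam2, -0.78 and -0.72 for Cd34 (WT and KO), and -0.36 for Podxl in WT. Without 2-week KO m2 and m3, Icam1 became 0.85 and Cd34 0.01 at 2 weeks, Sele -3.90 and Mcam -0.18 over both, and Icam1 -0.27 and Sele 7.91 for the difference.

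The replicate block changed no call of a member. With it Podxl was at -0.71 at 2 weeks, -0.17 at 4 weeks (males only; -0.20 without the block) and -0.43 over both time points, Mcam turned to 0.07 at 2 weeks, Sele to -0.00 over both and Cd34 to -0.02 for the difference, and 0 genes were called in the last 2 comparisons instead of 13 and 14. That fit also left out the 3 female 4-week libraries, and the same 14 libraries without the block (12477 genes tested, against 13515) gave 0 calls in both as well, with Podxl at -0.45 over both and Cd34 at -0.01 for the difference. At 2 weeks the same-numbered correlations were 0.0601, -0.00125, -0.0149 and 0.0154, so those numbers do not pair libraries.

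Leaving out single libraries gave, in KO at 2 weeks, -0.90 to 0.25 for Icam1, -0.38 to 1.95 for Vcam1 and -0.36 to 0.26 for Mcam. At 4 weeks it gave -0.12 to 0.17 for Mcam, -0.35 to 0.02 for Sele and -0.16 to 0.09 for Cd34. Over both it gave -0.27 to 0.30 for Icam1, -3.72 to 4.72 for Sele and -0.14 to 0.15 for Mcam, and for the difference -10.40 to 7.53 for Sele, -0.08 to 0.23 for Cd34 and -0.26 to 0.29 for Mcam.

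Over all genes, edgeR called 0, 0, 13, 14, 1086 and 1022 genes (KO at 2 weeks, at 4 weeks, over both, difference, time in WT, time in KO) and DESeq2 149, 17, 1004, 929, 2090 and 2144. At 2 weeks voom called 12 and the joint fit 33. Over both, no filter gave 8, at least 10 counts 3 and no sex term 30, and for the difference 6, 0 and 19. Without 2-week KO m2 and m3 the counts were 325 and 278, and single libraries moved them from 5 to 62 and from 7 to 52. In the time contrasts no filter gave 580 and 567, at least 10 counts 639 and 626, and single libraries 520 to 1398 and 604 to 1300. With at least 10 counts in every library Sele, Selp and Vcam1 could not be tested in fits that hold 2-week libraries.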
